A study of Mus musculus with 58 samples.

Results

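The transcripts described here are 10 genes of antibody production, of 55376 genes with a row in the RNA-seq count files, in all 34 RNA-seq libraries: the immunoglobulin light chain constant genes Igkc, Iglc1 and Iglc2, the heavy chain constant genes Ighm and Igha, the joining chain gene Jchain, and the plasma cell genes Mzb1, Derl3, Sdc1 and Pou2af1. They were chosen by name because of their measured levels in some libraries of the YCR and OAL groups, so the levels in those groups, and every comparison with them, are given as a description, without p-values. The HSCs came from bone marrow of wild-type C57BL/6 males and were sorted for Sca-1, c-Kit and CD150 and against lineage markers, CD34 and Flk2. Of the 22 libraries of this kind, YAL (4 libraries), YCR (4) and YCRRF (4) came from young mice of 3 to 4 months that were fed ad lib, kept on short-term CR for 4 weeks (20% in the first week, then 40%), or given food freely again for 4 weeks after CR. OAL (4), OCR (4) and OCRRF (2) came from old mice of 24 to 26 months that were fed ad lib, kept on 40% CR from the age of 3 to 4 months, or refed for 4 weeks after it. The other 12 libraries held HSCs of old ad lib mice that had been transduced with lentiviral shRNA, transplanted into irradiated young female recipients together with myeloid progenitors of the recipient type, and sorted again as CD48-negative, CD150-positive donor cells. Of these, 4 carried an shRNA against Kdr and 2 its scramble control, and 4 carried shRNAs against Kdr and Bmpr1a together (2 with each of 2 Bmpr1a shRNAs) and 2 the matching scrambles. The labels do not say whether replicates came from separate mice or pools, so p-values here measure the spread between libraries, which may be technical.

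Plasma cells are the end stage of the B cell lineage and live in the bone marrow, where they secrete antibody built from a heavy and a light chain. In each B cell, 1 V segment per chain is joined by DNA rearrangement to shorter segments and is then transcribed together with a constant gene, so all plasma cells of 1 clone carry the same V segments. Plasma cells hold very large amounts of immunoglobulin mRNA, and IgA and IgM are secreted as multimers tied together by the J chain. HSCs have not rearranged these loci, although unrearranged constant and V segments can be transcribed at low level.

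Lineage antibodies in the sort of the fed, restricted and refed mice were directed, by the study's methods, against Ter119, B220, Mac-1, CD3, Gr-1 and IL-7Rα, and cells were enriched with c-Kit beads beforehand. An antibody against CD138, the product of Sdc1, is not among those listed. The labelled cell type was checked against 8 stem cell markers (among them Procr, Slamf1, Hlf and Fgd5), whose levels summed to between 3502 and 4990 CPM (counts scaled to library size by the TMM method) in the 22 libraries and between 2579 and 3499 CPM in the transplanted ones, with none of the 8 at 0 in any YCR or OAL library. The RNA-seq libraries held 11102898 to 36579392 counts in the fed, restricted and refed mice and 35657999 to 44780217 in the transplanted cells. Old libraries had counts on 42071 to 46646 genes and young libraries on 22209 to 33496, so age cannot be told apart from whatever set these libraries apart. Among genes with 1 to 10 counts, 68.3% to 83.2% of counts were even numbers in the 22 libraries, so counts tended to come in pairs and intervals based on counts, which cover counting error only, are too narrow.

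Igkc, Igha and Jchain were high in 5 libraries, namely YCR replicates 2, 3 and 4 and OAL replicates 1 and 3, and stood at 4 to 39 counts each in the remaining OAL libraries and in all OCR libraries. Igkc, Igha, Jchain and Ighm together made up 0.155%, 0.244% and 0.0949% of all counts in YCR replicates 2, 3 and 4, and 0.0356% and 0.0175% in OAL replicates 1 and 3. The same 4 genes made up 0.00327% of counts in YCR replicate 1, 0.000243% in OAL replicate 2 and 0.000314% in OAL replicate 4. Neither group was therefore uniform, and a group mean stands for none of its libraries. In bulk RNA, more cells of a type and more RNA per cell cannot be told apart.

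**Figure D1:**
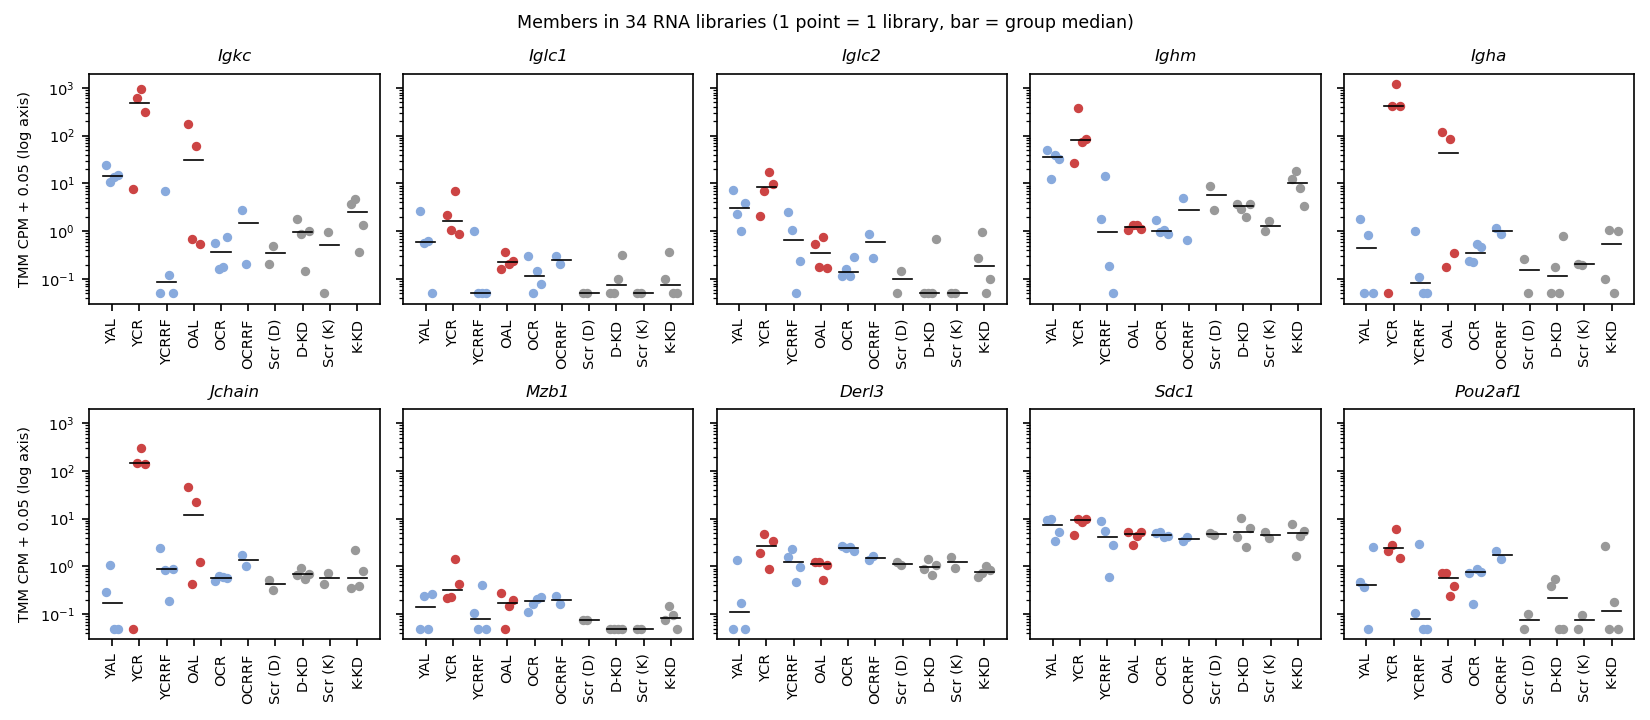
TMM-normalized level of each of the 10 genes in each of 34 RNA-seq libraries, in CPM plus 0.05 on a log axis, with 1 point per library and a bar at the group median. TMM scaling was done separately for the fed, restricted and refed libraries and for the transplanted cells. Red points are the YCR and OAL libraries, blue the other fed, restricted or refed libraries, grey the transplanted cells (Scr, scramble; K, Kdr experiment; D, Kdr with Bmpr1a experiment; KD, knockdown). Igkc, Igha and Jchain lie at 22.3 to 1180 CPM in 5 red points and below 25 CPM in every other library.

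Igkc encodes the constant region of the kappa light chain, which most mouse antibodies use, and lies on mm10 chr6:70726435-70726966 on the plus strand, inside the lincRNA gene Gm30211 without sharing an exon with it. Its levels in the YCR libraries were 7.61, 628, 929 and 316 CPM (222, 10612, 18162 and 10025 counts) in replicates 1 to 4, against 24.7, 10.6, 13.4 and 15.0 CPM in YAL. In the OAL libraries its levels were 179, 0.634, 59.9 and 0.487 CPM (6243, 20, 1867 and 16 counts), against 0.506, 0.115, 0.129 and 0.689 CPM in OCR. YCR replicate 1 thus lay below all 4 YAL libraries, and OAL replicates 2 and 4 lay inside the OCR range. In YCRRF the levels were 0, 6.99, 0.0706 and 0 CPM, where 0 counts in replicates 1 and 4 allow up to 0.0863 and 0.274 CPM (a floor of 3 counts per library), and in OCRRF they were 2.69 and 0.153 CPM.

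Igha encodes the constant region of IgA, the isotype of antibody at mucosal surfaces, and lies at chr12:113254830-113260236 on the minus strand. It had 0, 7033, 23068 and 13205 counts in YCR replicates 1 to 4, which are 0, 416, 1180 and 416 CPM, and 29, 0, 26 and 0 counts in YAL. In OAL it had 4164, 4, 2681 and 10 counts, which are 120, 0.127, 86.0 and 0.304 CPM, and in OCR 6 to 15 counts (0.172 to 0.484 CPM). YCR replicate 1, at 0 counts, allows up to 0.103 CPM. No library outside the 5 held more than 41 counts of Igha, a value from Kdr knockdown replicate 2, and YCRRF held 34, 2, 0 and 0 counts and OCRRF 36 and 22.

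Jchain encodes the protein that links IgA dimers and IgM pentamers, and lies at chr5:88519809-88527891 on the minus strand. It had 0, 2528, 5885 and 4420 counts in YCR (0, 150, 301 and 139 CPM) and 4, 33, 0 and 0 in YAL. In OAL it had 1581, 12, 696 and 39 counts (45.4, 0.380, 22.3 and 1.19 CPM), in OCR 14 to 20, in YCRRF 84, 26, 4 and 9, and in OCRRF 55 and 26. Jchain was therefore high in exactly the libraries in which Igkc and Igha were high. Those 5 libraries were picked out by these same levels. In them, Igkc counts per Jchain count were 4.20, 3.09 and 2.27 in YCR replicates 2, 3 and 4. They were 3.95 and 2.68 in OAL replicates 1 and 3. Igha per Jchain ran over 2.78, 3.92, 2.99, 2.63 and 3.85 in the same order. Per kilobase of exon, the level of Igkc was 1181, 1746 and 594 CPM in YCR replicates 2, 3 and 4 and that of Jchain 59.4, 120 and 55.3 CPM.

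Ighm encodes the constant region of IgM, the first isotype a B cell makes, and lies at chr12:113418558-113422730 on the minus strand. Its levels in YCR were 27.0, 382, 74.3 and 84.2 CPM (787, 6459, 1452 and 2672 counts), against 50.5, 12.1, 39.7 and 32.7 CPM in YAL. In OAL it had 36, 40, 40 and 35 counts (1.03 to 1.28 CPM) and in OCR 52, 32, 32 and 27 (0.809 to 1.65 CPM), so OAL replicates 1 and 3 were no higher in Ighm than the other OAL libraries. In YCRRF it had 60, 454, 4 and 0 counts and in OCRRF 159 and 16. Ighm thus did not share the pattern of the other 3 genes in old mice, and in young mice it was present in every YAL library.

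Counts on the heavy constant genes showed which isotype each library held. Igha made up 97.5% (95% Wilson interval 97.0% to 97.9%) of 4271 heavy constant counts in OAL replicate 1 and 96.8% (96.1% to 97.4%) of 2769 in OAL replicate 3, with Ighm at 0.843% and 1.45%. In YCR, Igha made up 52.1%, 93.1% and 81.7% in replicates 2, 3 and 4, and Ighm 47.8%, 5.86% and 16.5%. YCR replicate 2 therefore stood out by almost equal counts of both isotypes. Per kilobase of exon, its Igha level was 0.770 times that of Ighm. YCR replicate 1 held Ighm at 99.9% of 788 heavy constant counts, and the YAL libraries held it at 81.1% to 90.6% of 475 to 1586. IgG was rare in the 5 libraries, with 10, 46 and 121 Ighg counts in YCR replicates 2, 3 and 4 and 59 and 33 in OAL replicates 1 and 3.

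Iglc1 (chr16:19061618-19062071, minus strand) and Iglc2 (chr16:19198396-19200351, minus strand) encode constant regions of the lambda light chain, the less used light chain of the mouse. Iglc2 had 58, 114, 339 and 314 counts in YCR (1.99, 6.75, 17.3 and 9.89 CPM), 124, 72, 32 and 70 in YAL, and 17, 4, 22 and 4 in OAL, against 2 to 8 in OCR. Iglc1 had 61, 17, 135 and 26 counts in YCR, 0 to 44 in YAL, and no more than 10 in any OAL or OCR library. Both were low beside Igkc, and kappa made up 98.0%, 96.4% and 92.0% of light chain constant counts in YCR replicates 2, 3 and 4 and 99.5% and 98.4% in OAL replicates 1 and 3. In YAL the share of kappa was 57% to 73.5%, and in YCR replicate 1 it was 58.4% (95% Wilson interval 53.4% to 63.3%). Iglc1 lies inside the antisense gene 2010309G21Rik without sharing an exon, and 38 of the 612 exon bases of Iglc2 belong to Iglj2. Whether the counting used strand is not given in the sources used here, so reads of overlapping genes cannot be told apart.

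V segments were counted next, since a rearranged transcript carries 1 of them. They were not used to choose the genes, but they lie on the same transcripts as the constant genes. Their total in the 5 libraries is therefore not independent of the choice. The count files held rows for 160 kappa, 183 heavy and 3 lambda V segments. In each of the 5 libraries a few segments took most V counts, and the leading segments differed between libraries. The kappa segments were led by Igkv1-110 in YCR replicate 2 (2538 of 6703 counts, 37.9%) and in YCR replicate 3 (8385 of 10776, 77.8%), by Igkv10-96 in YCR replicate 4 (3970 of 4611, 86.1%), by Igkv6-15 in OAL replicate 1 (3362 of 3960, 84.9%) and by Igkv6-25 in OAL replicate 3 (834 of 1196, 69.7%). The heavy segments were led by Ighv1-76 in YCR replicate 2 (1409 of 2616, 53.9%), by Ighv10-1 in YCR replicate 3 (7097 of 7716, 92.0%), by Ighv1-72 in YCR replicate 4 (1470 of 2370, 62.0%), and by Ighv1-81 in OAL replicates 1 (1312 of 1857, 70.7%) and 3 (628 of 1105, 56.8%). YCR replicate 2 held further segments at high share, namely Igkv12-44 (1797 counts), Igkv19-93 (1552), Ighv2-3 (635) and Ighv1-82 (466), and YCR replicate 3 held Igkv1-135 (2170) and Ighv3-8 (404).

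Most of these leading segments were almost absent elsewhere among the 34 libraries. Outside its own library, Igkv6-15 reached 10 counts at most, Igkv10-96 8, Ighv10-1 12 and Ighv1-76 20. Igkv1-110 was shared by YCR replicates 2 and 3 and had no more than 4 counts in any other library. Ighv1-81 was shared by OAL replicates 1 and 3, with the next highest counts being 40 in YCR replicate 3 and 28 in OCRRF replicate 1. Expressed as an effective number of segments (the inverse of the summed squared shares), kappa usage came to 3.58, 1.55, 1.35, 1.39 and 2.05 segments in YCR replicates 2, 3 and 4 and OAL replicates 1 and 3, and heavy usage to 2.63, 1.18, 2.42, 2.00 and 3.07. In OAL replicates 2 and 4 the effective number was 58.2 and 55.0 for kappa and 58.0 and 66.9 for heavy segments, with no segment above 6.03% of V counts.

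The remaining old libraries had the same flat distribution, with 336 to 655 kappa V counts spread over an effective 55.8 to 72.1 segments in OCR and OCRRF. These libraries had far more V counts than constant counts, with 7.53 to 160.5 kappa V counts per Igkc count in OAL replicates 2 and 4, OCR and OCRRF, whereas the 5 libraries had 0.460 to 0.641. The YAL libraries lay between, at 0.663 to 1.11 kappa V counts per Igkc count, with the leading kappa segment at 17.4% to 50.8% of 277 to 416 V counts. YCRRF replicate 3 had 520 kappa V counts and 2 Igkc counts (260 per Igkc count), over an effective 7.745 segments. YCRRF replicate 1 had 76 and 0 (effective 10.54), and replicate 2 had 269 and 224 (effective 5.508). Replicate 4 had 18 kappa V counts and 0 of Igkc. An excess of V over constant counts was therefore not limited to old libraries with a flat distribution. YCR replicate 1 had only 104 kappa and 186 heavy V counts, led by Igkv4-59 (32.7%) and Ighv1-26 (29.0%). Old libraries with a flat distribution also had counts on more genes than any young library, and the part of this in the V counts was not tested.

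**Figure D2:**
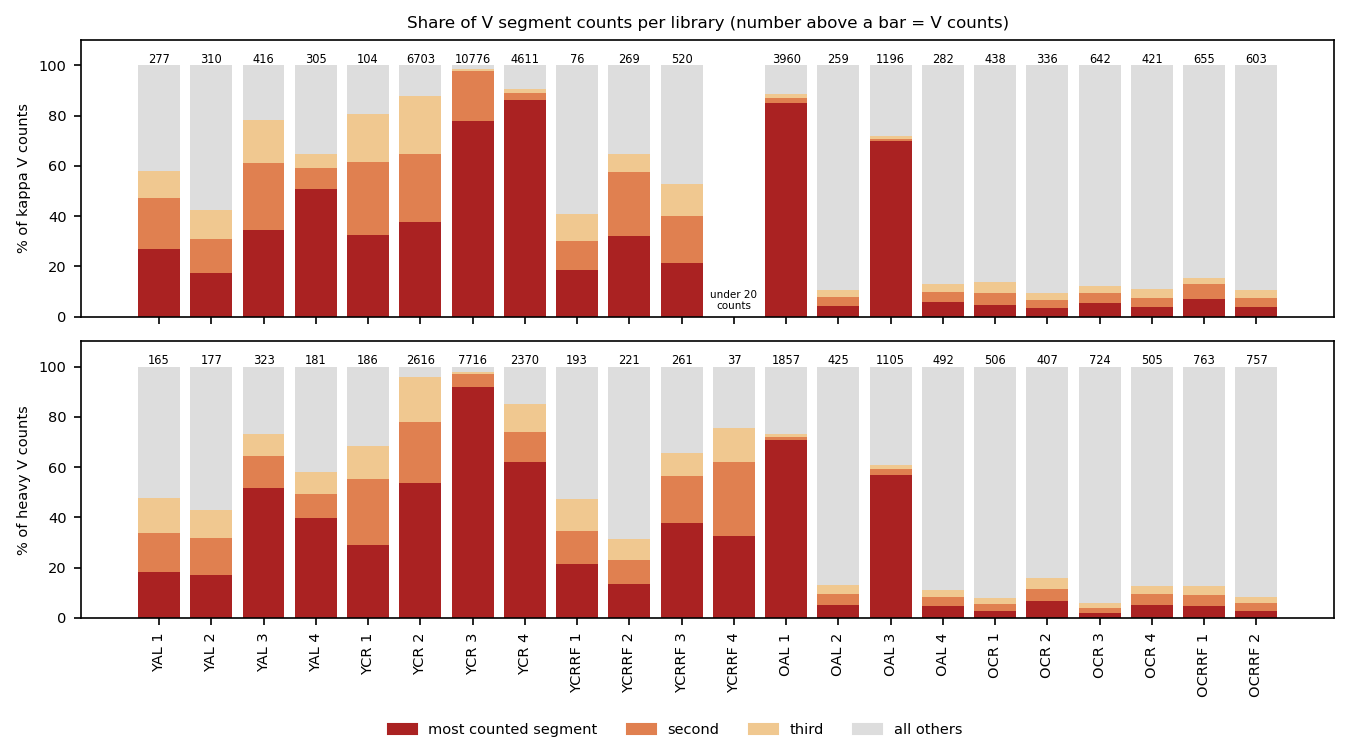
Share of kappa (top) and heavy (bottom) V segment counts taken by the 3 most counted segments and by all others in each of the 22 libraries of fed, restricted and refed mice, in percent, with the number of V counts above each bar and no bar below 20 counts. YCR replicates 2 to 4 and OAL replicates 1 and 3 are dominated by their leading segments at 1105 to 10776 V counts, while OAL replicates 2 and 4, OCR and OCRRF have no segment above 6.87%.

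V segments belong to families of similar sequence, so counts can be split or moved between neighbours. The sequences of 2 pairs are shown because the reading of the leading segments depends on them. Ighv1-72 and Ighv1-53 were the first and second heavy segments of YCR replicate 4 (1470 and 286 counts), and 293 of 305 aligned bases of their V exons were identical (96.1%). Igkv6-15 and Igkv6-25 led the kappa counts of OAL replicates 1 and 3, which shared Ighv1-81, and 268 of 298 bases were identical (89.9%), leaving 30 differences along the exon by which reads can be assigned. Sequences are from the GRCm38 genome, 5′ to 3′ on the coding strand, at chr12:115158403-115158702 (minus, Ighv1-53), chr12:115757984-115758283 (minus, Ighv1-72), chr6:70406469-70406766 (minus, Igkv6-15) and chr6:70215660-70215957 (plus, Igkv6-25), with the first 5 bases of the heavy exons left out, and capitals mark the bases at which the members of a pair differ.
Ighv1-53: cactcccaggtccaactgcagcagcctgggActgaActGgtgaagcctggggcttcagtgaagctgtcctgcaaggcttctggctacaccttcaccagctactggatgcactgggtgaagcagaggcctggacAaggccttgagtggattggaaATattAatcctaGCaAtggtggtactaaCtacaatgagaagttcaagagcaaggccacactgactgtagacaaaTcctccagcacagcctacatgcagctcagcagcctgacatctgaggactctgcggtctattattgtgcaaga
Ighv1-72: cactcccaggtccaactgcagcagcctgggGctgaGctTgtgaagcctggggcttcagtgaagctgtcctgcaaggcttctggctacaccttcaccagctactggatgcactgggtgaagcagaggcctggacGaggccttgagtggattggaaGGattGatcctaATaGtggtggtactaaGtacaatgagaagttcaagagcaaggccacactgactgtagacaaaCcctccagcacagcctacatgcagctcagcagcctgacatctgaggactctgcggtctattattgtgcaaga
Igkv6-15: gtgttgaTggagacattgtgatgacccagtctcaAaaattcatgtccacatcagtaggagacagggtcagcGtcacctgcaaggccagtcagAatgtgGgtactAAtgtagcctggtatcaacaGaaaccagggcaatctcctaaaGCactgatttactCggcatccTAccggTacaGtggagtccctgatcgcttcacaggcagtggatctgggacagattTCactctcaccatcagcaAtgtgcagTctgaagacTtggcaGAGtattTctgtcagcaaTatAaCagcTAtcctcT
Igkv6-25: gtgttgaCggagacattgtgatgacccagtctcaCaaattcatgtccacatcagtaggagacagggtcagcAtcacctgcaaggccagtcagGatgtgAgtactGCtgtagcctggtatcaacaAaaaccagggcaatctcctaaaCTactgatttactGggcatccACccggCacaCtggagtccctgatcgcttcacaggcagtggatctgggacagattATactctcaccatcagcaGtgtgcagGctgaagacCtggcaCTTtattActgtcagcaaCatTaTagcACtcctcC
The 12 capitals of the heavy pair lie in a few clusters with long identical stretches between them, and reads over those stretches do not tell Ighv1-72 from Ighv1-53, and the 286 Ighv1-53 counts may in part be reads of the other segment. In the kappa pair the capitals run through the whole exon. OAL replicate 1 held 3362 counts of Igkv6-15 and 38 of Igkv6-25, and OAL replicate 3 held 834 of Igkv6-25, so the kappa segments of these libraries differed although the heavy segment was shared. Igkv1-110 and Igkv1-135, the leading pair of YCR replicate 3, were 80.2% identical.

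The plasma cell genes among the 10 were much lower in counts than Igkc, Igha and Jchain in the 5 libraries. None was higher in all of the 5 than in the other libraries of the same group. Mzb1 (chr18:35647267-35649367, minus strand), a chaperone of the endoplasmic reticulum (ER) that aids antibody assembly, had 5, 3, 27 and 12 counts in YCR and 8, 0, 3 and 5 in OAL, and 0 to 27 counts in all 34 libraries. Of its 1215 exon bases, 695 (57.2%) overlap exons of Spata24 on the same strand, so reads on them can be lost to either gene by the counting, and its low counts limit what it can show. Sdc1 (chr12:8771323-8793715, plus strand), which encodes the plasma cell surface proteoglycan CD138, had 132, 164, 168 and 312 counts in YCR (4.52, 9.71, 8.59 and 9.83 CPM), 96 to 318 in YAL (3.33 to 10.0 CPM), 180, 89, 131 and 168 in OAL and 128 to 185 in OCR. YCR replicate 1 had the lowest Sdc1 level of the YCR libraries, but the ranges of YCR and YAL overlapped, as did those of OAL and OCR.

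Derl3 (chr10:75893413-75895941, plus strand), a component of ER-associated degradation induced by the unfolded protein response, had 54, 80, 16 and 108 counts in YCR and 0, 42, 4 and 0 in YAL. In OAL its levels were 1.18, 1.17, 0.481 and 1.00 CPM (41, 37, 15 and 33 counts) and in OCR 2.69, 2.33, 2.48 and 2.07 CPM (85, 81, 77 and 69 counts), so all OCR libraries lay above all OAL libraries. Both its lowest and its highest level in each of YCR and OAL were in libraries high in Igkc, with 4.73 CPM in YCR replicate 2 and 3.40 in replicate 4 against 0.818 in replicate 3 and 1.85 in replicate 1. Over the 22 libraries the Pearson correlation of its log2 CPM with that of the summed Igkc, Igha, Jchain and Ighm was 0.00202, a description over libraries that share groups, depth and age.

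Pou2af1 (chr9:51213708-51240080, plus strand) encodes the B cell coactivator OBF-1, which works with octamer-binding factors at immunoglobulin promoters. It had 60, 47, 116 and 45 counts in YCR (2.06, 2.78, 5.93 and 1.42 CPM), 7, 10, 0 and 46 in YAL, 24, 22, 6 and 11 in OAL, 22, 4, 26 and 24 in OCR, and 66 and 37 in OCRRF. YCR replicate 1, with 0 counts of Igha and Jchain and 222 of Igkc, had no less Pou2af1 than replicate 4. In OAL the levels of replicates 1 and 2 were alike at 0.689 and 0.697 CPM. The octamer ATGCAAAT, read on both strands as ATGCAAAT or ATTTGCAT, was sought in the 300 bases around gene starts (250 before and 50 after, RefSeq, GRCm38.p6, where a gene is listed there). It was present in 570 of 32851 promoters (1.74%), in 73 of 100 kappa V genes (73.0%), in 91 of 113 heavy V genes (80.5%), and in 8 of 13 V segments that led or followed in the 5 libraries (61.5%), while the Jchain, Pou2af1, Derl3 and Sdc1 windows held none. A match describes the letters only. The Jchain promoter, chr5:88527898-88528147 on the minus strand, and 4 windows of 60 bases upstream of leading V segments are shown with the octamer in capitals, because they set a member that has no match beside segments that have one and were counted in the same libraries. The leading segments Igkv1-110, Igkv6-15, Igkv6-25 and Ighv1-81 had no match and are not shown. The V windows lie at chr6:68632490-68632549 (Igkv10-96), chr12:115848390-115848449 (Ighv1-76), chr12:115758490-115758549 (Ighv1-72) and chr12:114479539-114479598 (Ighv10-1), all on the minus strand.
Jchain promoter: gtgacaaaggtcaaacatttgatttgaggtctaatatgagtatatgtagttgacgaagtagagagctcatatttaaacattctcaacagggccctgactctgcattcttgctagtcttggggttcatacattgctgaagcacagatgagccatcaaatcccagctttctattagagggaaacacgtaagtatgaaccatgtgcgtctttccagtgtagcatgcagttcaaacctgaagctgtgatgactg
Igkv10-96 promoter: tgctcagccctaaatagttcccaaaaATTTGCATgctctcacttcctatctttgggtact
Ighv1-76 promoter: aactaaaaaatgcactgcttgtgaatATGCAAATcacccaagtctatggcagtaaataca
Ighv1-72 promoter: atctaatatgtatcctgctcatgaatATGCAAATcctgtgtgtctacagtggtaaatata
Ighv10-1 promoter: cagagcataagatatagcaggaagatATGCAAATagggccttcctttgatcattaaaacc
The heavy V windows carry the octamer as ATGCAAAT and the kappa window carries it in the reverse orientation.

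In the fits across all genes, the comparisons that involve the groups the members were chosen on are given as log2 fold changes with their SE and no p. Because those levels chose the genes, the counts of members called in these comparisons repeat the choice and support nothing, and the share of all genes called is printed beside them only for scale. The edgeR quasi-likelihood test counted a gene as called when it had an adjusted p (Benjamini-Hochberg) below 0.05 and differed by more than 1.2-fold, after a filter on low counts (filterByExpr). For OCR versus OAL, 7 of the 10 genes passed the filter, all but Iglc1, Iglc2 and Mzb1, and 4 were called (Igkc, Igha and Jchain lower, Derl3 higher) where 5.57% of all genes were called. The log2 fold changes were -7.36 (SE 1.15) for Igkc, -7.33 (SE 1.16) for Igha, -5.04 (SE 0.809) for Jchain, -0.06 (SE 0.326) for Ighm and 1.33 (SE 0.296) for Derl3. OAL replicates 2 and 4 lay in or near the OCR range for Igkc, Igha and Jchain, so these 3 fold changes rest on OAL replicates 1 and 3. For OCRRF versus OAL, 1 of 8 genes was called (Pou2af1, higher), with 4.14% of all genes called.

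For YCR versus YAL, 9 genes passed the filter, all but Mzb1, and 0 were called by edgeR, with 0.257% of all genes called and 1735 of 18680 at an unadjusted p below 0.05. DESeq2 called 3 of the 9 genes. For the DESeq2 counts and the fits without a library in this paragraph, the share of all genes called is not given here. The log2 fold changes were 4.92 (SE 0.984) for Igkc, 9.83 (SE 1.81) for Igha, 8.69 (SE 1.65) for Jchain, 2.1 (SE 0.692) for Ighm and 2.87 (SE 1.26) for Derl3. Large folds without a call go together here with the low values of YCR replicate 1, and edgeR without that library called 3 members. For YCRRF versus YCR, 0 of 9 genes were called by edgeR, where 0.0102% of all genes were called and 1420 of 19535 had an unadjusted p below 0.05, and DESeq2 called 4, with log2 fold changes of -7.93 (SE 1.63) for Igkc, -10.61 (SE 1.97) for Igha, -7.10 (SE 1.52) for Jchain and -5.09 (SE 1.27) for Ighm. For OAL versus YAL, 4 of 9 genes were called (Igha and Jchain higher, Ighm and Iglc2 lower), with 14.8% of all genes called, and 1 was called without OAL replicate 1. These comparisons share the YCR, YAL or OAL libraries and are not independent of each other.

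Refed and transplanted libraries were not used to choose the genes, and their comparisons were tested, although YAL and OCR had been the other arm of comparisons that chose them. For YCRRF versus YAL, 8 genes passed the filter, all but Igha and Mzb1, and 0 were called by edgeR or DESeq2, with 0% of all genes called and 714 of 19334 at an unadjusted p below 0.05. Igkc differed by -3.14 (SE 1.38) and Ighm by -3.05 (SE 1.15) on the log2 scale, each with an adjusted p of 0.995 in edgeR. YCRRF replicate 2 was far above the other YCRRF libraries in both. Without it the log2 fold change of Igkc was -8.95, and edgeR called the gene. That library was singled out by its own Igkc level, so the call without it follows from this choice and supports nothing. Jchain, Derl3, Sdc1, Pou2af1, Iglc1 and Iglc2 differed by 1.68, 1.81, -0.68, -0.13, -1.87 and -1.96 on the log2 scale with adjusted p of 0.995 to 0.999 in edgeR.

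For OCRRF versus OCR, 7 genes passed the filter, all but Iglc1, Iglc2 and Mzb1, and 0 were called by edgeR or DESeq2, with 3.41% of all genes called and 5501 of 32577 at an unadjusted p below 0.05. Igkc had 87 and 4 counts in OCRRF against 16, 4, 4 and 23 in OCR, so that the log2 fold change was 1.94 (SE 0.659, adjusted p = 0.102 in edgeR) and came to -1.31 without OCRRF replicate 1. Ighm behaved in the same way, with 1.30 (SE 0.453, edgeR adjusted p = 0.117) and -0.94 without that library. The values of Igkc and Ighm therefore rest on 1 of the 2 refed libraries. Igha (1.57, SE 0.595), Jchain (1.32, SE 0.479) and Pou2af1 (1.5, SE 0.495) were higher in both OCRRF libraries than in all 4 OCR libraries, with edgeR adjusted p of 0.156, 0.133 and 0.0901, whereas Derl3 (-0.78, SE 0.345, adjusted p = 0.236) was lower in both. Sdc1 differed by -0.37 (SE 0.256, edgeR adjusted p = 0.477).

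In the transplanted cells, Kdr had 228 and 254 counts in the scramble libraries of the Kdr experiment and 76, 92, 147 and 80 in the knockdown, and in the experiment with both shRNAs it had 151 and 188 counts in scramble and 44, 22, 64 and 50 in the knockdown. Bmpr1a had 198 and 180 counts in the latter scramble libraries and 158, 26, 89 and 22 in the knockdown, so 1 library with the first Bmpr1a shRNA was close to scramble. None of the 12 libraries carried the pattern of the 5, with Igkc at 0 to 190 counts, Igha at 0 to 41 and Jchain at 11 to 90. Ighm was the most counted of the 4 genes, at 36 and 66 counts in scramble and 477, 764, 353 and 133 in the Kdr knockdown, where every knockdown library lay above both scramble libraries. The B precursor list, which includes Dntt, Igll1 and Vpreb3, summed to 25.4, 5.10, 8.34 and 6.17 CPM in knockdown replicates 1 to 4 and to 5.32 and 4.90 CPM in scramble, and its part in the Ighm level was not tested. The log2 fold change of Ighm was 3.04 (SE 0.649, adjusted p = 0.271 in edgeR and 0.00679 in DESeq2).

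Among the 6 members tested in the Kdr experiment, edgeR called 0, with 0.0149% of all genes called and 1789 of 20098 at an unadjusted p below 0.05. DESeq2 called 1, and its share of all genes called is not given here, so that count has no background. The other 5 differed by 2.41 (SE 1.26, Igkc), 1.69 (SE 1.5, Igha), 0.73 (SE 0.83, Jchain), -0.69 (SE 0.411, Derl3) and 0.04 (SE 0.489, Sdc1), with edgeR adjusted p of 0.616 to 0.987. In the knockdown of Kdr with Bmpr1a, 0 of 6 members were called by edgeR and 0 by DESeq2, with 0.00498% of all genes called and 1977 of 20072 at an unadjusted p below 0.05. Ighm had 328 and 112 counts in scramble, 130 and 113 with the first and 78 and 138 with the second Bmpr1a shRNA, and differed by -0.90 (SE 0.440, edgeR adjusted p = 0.558). Its direction in the Kdr experiment was thus not seen here, and the difference between the experiments was not tested.

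Genes of other cell types were summed per library from marker lists, and genes of the plasma cell program from a list of 21. The program list, which includes the transcription factors Xbp1, Prdm1 and Irf4 and ER genes such as Hspa5 and Hsp90b1, summed to 2661 to 2813 CPM in all 4 YCR libraries and 2269 to 2459 in YAL, with YCR replicate 1 at 2661 and YCR replicates 2 to 4 at 2757, 2813 and 2671. In OAL it summed to 2012, 1961, 2038 and 1809 CPM and in OCR to 2234 to 2823. Within each group the libraries high in Igkc had the higher sums, by small margins (2671 against 2661 CPM in YCR and 2012 against 1961 CPM in OAL at the closest). Most of its level comes from ER genes that HSCs express too, and its narrower genes were low in all libraries, with Tnfrsf17 (BCMA, a survival receptor of plasma cells) at 0 to 24 counts and Slamf7 at 0 to 48. Slamf7 had 0, 40, 23 and 48 counts in YCR, 24, 0, 0 and 0 in YAL and 30, 8, 22 and 28 in OAL.

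Prdm1, which encodes Blimp-1, the repressor that shuts down the B cell state, had 66, 0, 184 and 54 counts in YCR and 147, 61, 87 and 88 in OAL. YCR replicate 2, second highest of the 34 libraries in Igkc and Jchain taken as CPM, had no Prdm1 or Irf4 count, which allows up to 0.178 CPM. The B cell list of 12 genes summed to 70.1, 78.5, 174 and 151 CPM in YCR and 84.7 to 154 CPM in YAL, and in OAL to 53.8, 52.5, 59.3 and 53.7 CPM. YCR replicates 3 and 4 were therefore near the highest YAL library in B cell genes, with Ms4a1 at 278 and 570 counts, whereas YCR replicate 2 had 70 and OAL replicates 1 and 3 were close to the other OAL libraries. Of these sums, Cd79b alone gave 35.35, 51.19, 56.1 and 49.34 CPM in YCR replicates 1 to 4. It gave 42.21 to 61.89 CPM in YAL and 33.95 to 36.75 CPM in OAL. Most of each OAL sum was thus this gene, and the sums show little of the other B cell genes there. The part of B cell, plasma cell or other transcripts in the levels of the members was not tested.

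Other lists moved in other ways. Neutrophil genes (8 genes) summed to 357.7, 6.87, 2.76 and 101.2 CPM in YCR and 5.2, 62.4, 25.9 and 84.8 CPM in OAL, so the libraries high in Igkc were lower in them than the others of their group. T cell genes (7 genes) reached 15.3 CPM in YCR replicate 4 and 1.66 to 2.09 CPM in the other YCR libraries, and 4.08 to 4.74 CPM in OAL. Erythroid genes (7 genes) summed to 153 and 154 CPM in OAL replicates 1 and 3 and to 33.9 and 231 CPM in replicates 2 and 4. B precursor genes (8 genes) stayed between 4.10 and 13.2 CPM, macrophage genes (6 genes) between 18.0 and 90.1 CPM and plasmacytoid dendritic cell genes (8 genes, among them Bst2, Tcf4 and Irf8, which stem cells express too) between 190 and 331 CPM in the 22 libraries. The part of any of these in the levels of the members was not tested.

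**Figure D3:**
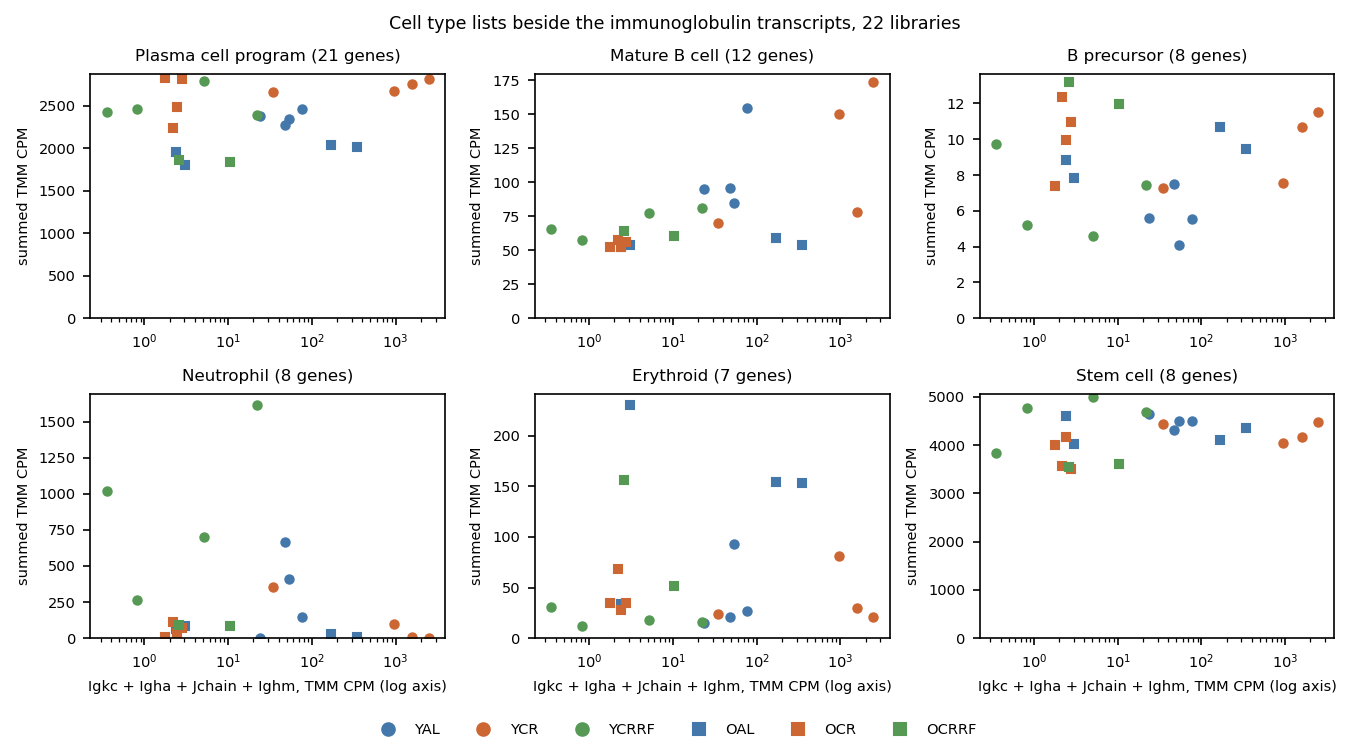
Summed TMM-normalized level (CPM) of 6 gene lists against the summed level of Igkc, Igha, Jchain and Ighm (CPM, log axis) in 22 libraries, with circles for young and squares for old mice and colours for the feeding groups. The 5 libraries at 169 to 2484 CPM on the horizontal axis lie within the range of the other libraries in the plasma cell program and stem cell lists, and the 3 young ones among them lie at 78.5 to 174 CPM in mature B cell genes. In these 3, Cd79b alone makes up 49.34 to 56.1 CPM of the mature B cell sum.

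In the tested comparison of OCRRF with OCR, 9 of the 21 program genes were called, where 3.41% of all genes were called. Of these, 1 was higher (Cd38, log2 fold change 0.61, SE 0.147) and 8 were lower, with a median of -0.27 over the list against 0.11 over all genes. The 8 were the ER genes Sdf2l1 (-1.87, SE 0.224), Hspa5 (-0.97, SE 0.135), Hsp90b1 (-0.95, SE 0.127), Creld2, Pdia4, Edem1, Sec11c and Spcs2, the last 5 between -0.93 and -0.46. Igha and Jchain, which were not called, were higher in both OCRRF libraries, and the relation of these ER genes to the members was not tested. The 12 B cell genes had a median of 0.60, and Pax5, a transcription factor of B cell identity, was among those called higher (1.28, SE 0.361). Of the 7 erythroid genes, 3 hemoglobin genes (Hba-a1, Hba-a2 and Hbb-bs) were called higher, beside the same 3.41% of all genes, and their part in the levels of the members was not tested. In OCR versus OAL, which is given as a description, 6 of the 21 program genes were called higher (Sdf2l1, Creld2, Edem1, Pdia4, Hsp90b1 and Hspa5) and 1 lower (Cd38), where 5.57% of all genes were called. The lower Igkc, Igha and Jchain of OCR rest on OAL replicates 1 and 3, and the relation of the 6 ER genes to them was not tested. In YCR versus YAL 1 of 20 was called higher (Sdf2l1), with 0.257% of all genes called. In YCRRF versus YAL and both knockdowns 0 were called by edgeR, with 0%, 0.0149% (Kdr) and 0.00498% (Kdr with Bmpr1a) of all genes called.

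The genes with the pattern most like the summed level of Igkc, Igha, Jchain and Ighm were ranked by Pearson correlation of log2 CPM over the 22 libraries among 16942 genes whose mean level reached 1 CPM. The values for Igkc (0.988), Igha (0.860), Ighm (0.798) and Jchain (0.795) are built in, since these genes make up the sum. The other members ranged from 0.824 (Iglc2) over 0.614 (Iglc1), 0.609 (Sdc1), 0.539 (Pou2af1) and 0.485 (Mzb1) to Derl3 near 0. The 10 most alike genes that were neither members nor immunoglobulin segments were Gm14493 (0.805), Nes (0.752), Ly6d (0.744), Dnajc1 (0.731), Gm40466 (0.713), Cd79a (0.706), 5330439K02Rik (0.698), Ms4a1 (0.696), Slc52a3 (0.694) and Hnf4a (0.690). Of these, Cd79a, Ms4a1 and Ly6d are B lineage genes. Ly6d had 96, 110, 514 and 428 counts in YCR, 144, 98, 126 and 112 in YAL and 0, 0, 6 and 8 in OAL, so among the 5 libraries YCR replicates 3 and 4 alone lay above the YAL range. The correlations describe libraries that share groups and differ in age, and they do not measure the size of a difference. Gm14493, the first of the 10, had 494, 346, 370 and 573 counts in YCR and 247, 492, 524 and 332 in YAL.

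The chromatin values used here are ATAC-seq of OCR and OCRRF, histone marks of OCR, and PU.1 ChIP-seq of OAL, OCR and OCRRF. Of 131918 consensus ATAC-seq peaks, 16 lay at least in part within 10 kb of the start of a member, 3 each for Igkc and Ighm, 4 for Jchain, and 2 each for Mzb1, Derl3 and Sdc1, and none for Igha, Iglc1, Iglc2 or Pou2af1. A peak lay over the start of Derl3, at 58.9 to 63.6 CPM in the 6 libraries and stronger than 98.5% of all peaks, and over the start of Sdc1, at 47.6 to 63.1 CPM and stronger than 98.1%. No peak lay over the start of Jchain, Igkc, Ighm or Mzb1. The 4 Jchain peaks were stronger than 14.2% (the nearest, 3593 bases downstream), 73.5%, 69.0% and 67.3% of all peaks. The 3 Igkc peaks were stronger than 35.0% (524 bases upstream), 10.7% (907 bases downstream) and 45.0% (4596 bases downstream), and the 3 Ighm peaks, all upstream, than 84.9%, 75.0% and 9.82%. None of the 16 peaks was called between OCRRF and OCR by edgeR (0.221% of all peaks called, 14437 of 123372 at an unadjusted p below 0.05), and the lowest adjusted p was 0.117, for the Sdc1 start (log2 fold change 0.24, SE 0.0727).

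Histone marks at the starts in OCR HSCs are given as the mean signal per base in 2 libraries. H3K4me3, a mark of active starts, was 23.7 and 24.5 at Sdc1 and 7.97 and 7.65 at Derl3, but 0.380 and 0.795 at Jchain, 0.660 and 0.955 at Mzb1 and 0.315 and 0.801 at Pou2af1. Derl3 was higher than 47.5% and 47.6% of 31552 promoters and Jchain higher than 24.6% and 34.7%. H3K27me3, the Polycomb mark of repressed genes, was 1.83 and 2.49 at Sdc1, 1.06 and 1.01 at Pou2af1, 0.566 and 0.498 at Jchain, 0.353 and 0.390 at Mzb1 and 0.194 and 0.243 at Derl3. Sdc1 therefore carried both marks above most promoters, with 86.8% and 89.3% of promoters below it in H3K27me3. The immunoglobulin constant genes had no promoter row. The depth behind these signals is unknown.

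PU.1, a transcription factor of myeloid and B cells, had a peak near the start of Derl3 only, 134 bases upstream in OCR replicate 1 (fold enrichment 6.08) and 240 bases upstream in OCRRF replicate 1 (5.33). No PU.1 peak lay near a member in either OAL library or in replicate 2 of OCR or OCRRF, where 2262 to 3852 peaks were called in all. The study's methods list 2 PU.1 antibodies, and replicates 1 and 2 may differ in the antibody used, so the replicates are not strictly alike. No chromatin values were used here for YCR, and ATAC-seq and histone marks of OAL were not analysed here.

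**Figure D4:**
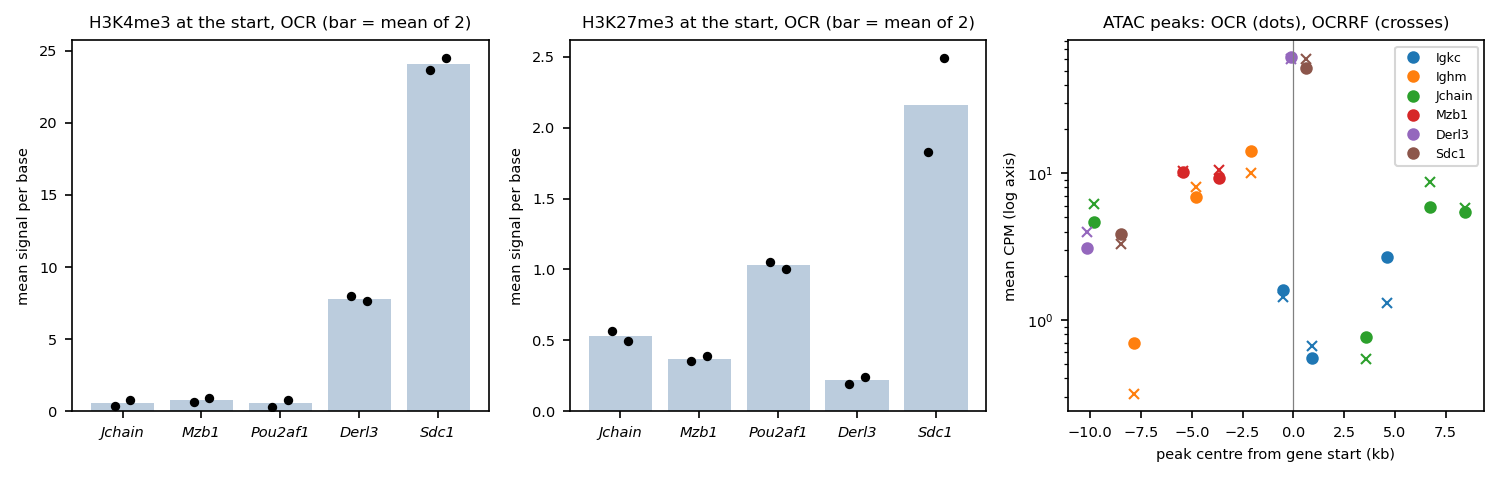
H3K4me3 (left) and H3K27me3 (middle) at the starts of 5 members in OCR HSCs, as mean signal per base with 1 point per library and a bar at the mean of 2, and (right) ATAC-seq peaks within 10 kb of the starts of 6 members by distance of the peak centre from the start in kb and mean level in CPM on a log axis, with dots for OCR and crosses for OCRRF. Sdc1 and Derl3 have H3K4me3 and a strong peak at the start, and Jchain, Mzb1 and Pou2af1 have signals of 0.315 to 0.955 in H3K4me3.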

How the data were processed

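RNA-seq libraries of 34 HSC samples, ATAC-seq of 6 OCR and OCRRF samples, histone mark libraries of OCR and PU.1 ChIP-seq of OAL, OCR and OCRRF were used. Per the study's methods, the authors aligned RNA reads with STAR to mm10 and deposited raw counts per gene from featureCounts (GENCODE M22). ATAC-seq counts over consensus peaks, histone signal per base over promoters, and MACS2 peak lists with fold enrichment, −log10 q and a display score were likewise deposited by the authors. Read depth of the histone signal is not given in the sources used here. Gene positions came from GENCODE M21 (GRCm38), and promoter sequences from RefSeq (GRCm38.p6).

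The 10 members and all marker lists were chosen with earlier results of these data known. Symbols were matched in every count file. Levels are CPM after TMM scaling, done separately over the 22 libraries of fed, restricted and refed mice and over the 12 of transplanted cells. Levels of these 2 sets are therefore not on a common TMM scale. A count of 0 was left at 0, and a floor of 3 counts gives the level it allows. Comparisons used edgeR 4.0.16 (R 4.3.3, filterByExpr, quasi-likelihood test) on the 2 groups compared, with p-values adjusted over all genes tested. Calls needed an adjusted p below 0.05 with a difference of over 1.2-fold for genes, or over 1.5-fold and a mean above 1.5 log2 CPM for ATAC-seq peaks. Genes named beside the members were those of the fixed lists, the leading V segments and the 10 most alike genes. DESeq2 1.42.0, other filters and scalings, a replicate block and leaving out each library were the alternatives. The edgeR procedure was tested on simulated counts for YCRRF versus YAL, OCRRF versus OCR, the Kdr knockdown and the knockdown of both genes. It recovered 54.5%, 62%, 72% and 68.5% of 200 genes changed 4-fold, so a gene that was not called can still differ. Some genes of the marker lists are not reported here by name.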

Additional observations from a re-analysis of the deposited data

Results flagged for a closer look

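In groups of 4 libraries, 1 library was set far apart from the other 3 when the gap to its nearest neighbour was, relative to the range, above Dixon's 95% critical value. This held for 12 of 60 gene and group combinations tested. The critical value gives about 1 in 20 by chance only for normally distributed values. The levels used were untransformed CPM, some from few counts, so the 12 cannot be compared with that rate. Where the other 3 libraries had no counts, any count passed, as for Iglc1 in YCRRF replicate 1. Some combinations lie in YCR, on which the genes were chosen, and neighbouring genes in 1 library are not independent. Group fits assume libraries of a group to be alike, so the values set apart bear on each fold change that includes the library.

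Ighm in YCR replicate 2 stood at 382 CPM, with the other YCR libraries at 27.0 to 84.2 CPM, and Mzb1 in YCR replicate 3 at 1.38 CPM, against 0.171 to 0.378 CPM in the others. YCRRF replicate 2 was far above its group in 3 genes, with Igkc at 6.99 CPM (others 0 to 0.0706), Ighm at 14.2 CPM (others 0 to 1.73) and Pou2af1 at 2.87 CPM (others 0 to 0.0575). YCRRF replicate 1 stood apart in Igha, at 0.978 CPM (others 0 to 0.0624), and in Iglc1, at 0.949 CPM (others 0). Mzb1 in YCRRF replicate 3 was 0.353 CPM, from 10 counts, against 0 to 0.0575 CPM in the others.

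Among the ad lib young libraries, Derl3 was 1.32 CPM in YAL replicate 2 (others 0 to 0.119) and Pou2af1 2.52 CPM in YAL replicate 4 (others 0 to 0.414). In the Kdr knockdown, Pou2af1 was 2.69 CPM in replicate 1 (others 0 to 0.134) and Iglc1 0.313 CPM in replicate 2 (others 0 to 0.0507).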

How the results depend on the processing

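Counts of members called by edgeR moved with the filter, the tool and single libraries. With a minimum of 10 counts the count was 2 instead of 4 in OCR versus OAL, 1 instead of 0 in YCR versus YAL, 1 instead of 4 in OAL versus YAL, 0 instead of 1 in OCRRF versus OAL and 1 instead of 0 in OCRRF versus OCR. Without a filter it was 4 in YCR versus YAL, 5 in YCRRF versus YCR, 5 in OCRRF versus OAL, 2 in YCRRF versus YAL, 2 in OCRRF versus OCR and 1 in the Kdr knockdown. DESeq2 called 3 in YCR versus YAL, 4 in YCRRF versus YCR and 1 in the Kdr knockdown, with adjusted p of NA kept as NA, and its size factors in edgeR gave 3 in OCRRF versus OAL and 1 in OCRRF versus OCR. The cause of these moves was not tested. The share of all genes called in these alternatives, and in those below, is not given here, so the counts describe the settings only. Without a filter, edgeR gave Ighm in YCRRF versus YAL an adjusted p of 7.17e-08 at a log2 fold change of -3.03. The filtered fit had a similar fold and did not call it, so the unfiltered counts are not comparable with the others.

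Leaving out 1 library at a time gave 4 to 4 members called in OCR versus OAL, 0 to 3 in YCR versus YAL (3 without YCR replicate 1), 1 to 4 in OAL versus YAL (1 without OAL replicate 1, 2 without OAL replicate 3), 0 to 2 in YCRRF versus YCR (2 without YCR replicate 1), 0 to 1 in OCRRF versus OAL (0 without OAL replicate 1, OAL replicate 3 or OCRRF replicate 1), 0 to 1 in YCRRF versus YAL (1 without YCRRF replicate 2) and 0 to 2 in OCRRF versus OCR (2 without OCRRF replicate 2, 1 without OCR replicate 3), and 0 in both knockdowns and for the ATAC-seq peaks. Log2 fold changes that turned sign on leaving out a library were those of Ighm in OCR versus OAL (-0.32 to 0.059), Pou2af1 in YCRRF versus YAL (-4.85 to 1.61), Igkc and Ighm in OCRRF versus OCR (-1.31 to 2.88 and -0.94 to 2.15, negative without OCRRF replicate 1), Jchain and Sdc1 in the Kdr knockdown (-0.22 to 1.25 and -0.29 to 0.32), and Ighm and Sdc1 in the knockdown of both genes (-1.50 to 0.14 and -0.11 to 0.55). Those of Igkc, Igha and Jchain in YCR versus YAL stayed at 4.35 to 5.33, 8.96 to 10.68 and 8.09 to 11.19.

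Replicate numbers did not pair the samples: libraries with the same number deviated together (correlation over 0.1) in 6 of 70 pairs, with a median of -0.02. With the replicate number as a block the count was 3 in OAL versus YAL, 3 in OCRRF versus OAL, 1 in OCRRF versus OCR, 1 in the Kdr knockdown, 2 for the ATAC-seq peaks and 0 in YCR versus YAL, YCRRF versus YCR and YCRRF versus YAL, and Sdc1 in the Kdr knockdown came to -0.35. Depth limits the low members most, since Mzb1 had at most 27 counts in a library.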

Other observations

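V segment counts in the transplanted cells were low and, for kappa, uneven in some libraries. Igkv1-135 held 50 of 60 kappa V counts (83.3%) in the first library with shRNA 1 against Bmpr1a. In the Kdr knockdown, Igkv3-4 held 60 of 104 kappa V counts (57.7%) in replicate 1 and Igkv8-30 held 84 of 117 (71.8%) in replicate 2, whereas the leading heavy segment held 15.3% to 29.6% of 115 to 137 heavy V counts in the 4 libraries. These 2 Kdr knockdown libraries also had the highest Ighm levels of the transplanted cells, at 12.1 and 18.4 CPM. The segments were chosen after their values were seen, and no comparison with the scramble libraries was made for them.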
